A study of Mus musculus with 18 samples.

Results

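Wnt8b, Wnt3a, Wnt2b and Wnt5a encode WNT ligands of the cortical hem, and Wls encodes the carrier that takes WNT proteins to the cell surface. These 5 genes were chosen by the gene symbol in the array's platform annotation. On GRCm38.p6 the Wnt8b gene spans chr19:44493472-44514273, Wnt3a chr11:59248036-59290751, Wnt2b chr3:104944805-104961709, Wnt5a chr14:28504543-28527448 and Wls chr3:159839650-159938666. Each was read by 1 feature, whose position within the gene is not given in the sources used here, so 5 features of 18525 tested, which carry 13379 named genes, are described here. RNA came from neocortex of MF1 mouse embryos at E13.5 (days of embryonic development), cut into a rostral, a middle and a caudal part. Each region was represented by 3 pools, and no treatment or mutation is named for any of them. On each of 18 arrays 1 pool labelled with Cy5 was set against another, of a different region, labelled with Cy3, and each pair of regions met on 6 arrays. A pool was used 4 times, 2 times with either dye. The labels name 4 embryos as the source of all pools and do not say which embryos went into which pool, so the p-values rest on variation among pools that may be partly or wholly technical. They also do not say how far the medial edge of the cortex, where the hem lies, was included.

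The cortical hem is a strip of neuroepithelium at the medial edge of the cerebral cortex, next to the choroid plexus. It secretes WNT and BMP proteins, is needed for the hippocampus to form, and is a source of Cajal-Retzius cells. A WNT ligand receives a lipid from Porcn in the endoplasmic reticulum, is carried to the surface by Wls and binds Frizzled receptors with Lrp5 or Lrp6, after which beta-catenin enters the nucleus and acts with TCF and LEF proteins. Some ligands, Wnt5a among them, act mainly through Ror2 or Ryk without beta-catenin.

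The values deposited are log2 ratios of the dyes on an array, so they compare pools for the same gene and give no level that could be set against another gene. For the same reason the presence of hem tissue could not be checked from its markers, and only differences between regions are given. A pool value is the log2 value of a pool, estimated from its arrays after removal of the dye effect, with the mean of the 9 pools at 0. A difference between regions is the difference of their mean pool values, with a standard error and a 95% interval from limma, a linear model fitted to all 18525 features. A feature passed where its p, adjusted by Benjamini and Hochberg over those features, was under 0.05. The ratio was read as Cy5 over Cy3. This direction is likely and not stated: with it Nr2f1, a transcription factor gene known to be higher caudally, had a rostral minus caudal difference of -1.02 ± 0.07 (SE), and the FGF target genes Etv1 and Spry2, known to be higher rostrally, had 0.80 ± 0.07 and 0.46 ± 0.06. Were the ratio the other way round, every sign below would turn.

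The promoters of Wnt8b and Wls are shown because these were the genes whose regions differed beyond the spread of the pools before adjustment for multiple tests. They are RefSeq sequences of GRCm38.p6, from 250 bases before the start of transcription to 50 after it, written 5′ to 3′. The Wnt8b window is chr19:44493222-44493521 on the plus strand and the Wls window is chr3:159839400-159839699 on the plus strand. Capitals mark matches, on either strand, to the motifs described after them.
Wnt8b: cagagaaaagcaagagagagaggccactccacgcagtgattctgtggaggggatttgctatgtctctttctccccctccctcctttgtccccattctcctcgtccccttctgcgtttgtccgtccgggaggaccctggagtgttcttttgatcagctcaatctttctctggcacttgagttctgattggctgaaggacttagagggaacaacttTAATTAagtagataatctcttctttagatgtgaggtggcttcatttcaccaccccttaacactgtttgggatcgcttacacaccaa
Wls: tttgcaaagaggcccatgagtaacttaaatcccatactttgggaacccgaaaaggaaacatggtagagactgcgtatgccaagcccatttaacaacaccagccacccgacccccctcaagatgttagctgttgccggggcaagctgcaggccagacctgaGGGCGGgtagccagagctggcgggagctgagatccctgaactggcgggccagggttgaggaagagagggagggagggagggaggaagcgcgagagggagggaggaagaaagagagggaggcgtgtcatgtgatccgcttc

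Promoters of 4 of the 5 genes were matched in the RefSeq table. Motifs were searched on both strands, and none was counted as a site of binding. The homeodomain core TAATTA was found 1 time, in Wnt8b, starting at position -36 from the start of transcription, and 5.29% of the 32851 promoters in the table hold it. The GC box GGGCGG was found 1 time in Wls, at -90, 9 times in Wnt3a, 4 times in Wnt2b and 0 times in Wnt8b, and 35.7% of promoters hold it. A TCF and LEF motif, CTTTGAT, was found 0 times in the 4 windows against a share of 3.73% of promoters. The forkhead motif TGTTTAC was likewise found 0 times, against 3.65%. The windows also differed in base composition. Wnt8b held 6 CpG dinucleotides at a GC content of 48.3%, and Wls held 11 at 58.0%. Wnt3a held 45 at 86.3% and Wnt2b 43 at 79.7%, which places their CpG counts at the percentiles 98.4 and 97.8 of all promoters, against 47.9 for Wnt8b and 60.4 for Wls.

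Wnt8b, a ligand gene of the hem and of the hippocampal primordium, had its lowest values in the middle of the neocortex. The 3 rostral pools were at 0.20, 0.16 and 0.15, the 3 middle pools at -0.28, -0.18 and -0.32, and the 3 caudal pools at 0.21, 0.02 and 0.03. All middle pools lay below all rostral and all caudal pools, whereas rostral and caudal pools overlapped because caudal replicate 1 was the highest of the 9. The rostral pools lay close together, at 0.172 ± 0.024 (SD, n = 3), against 0.089 ± 0.108 in caudal pools. Each of these values rests on 4 arrays, and the SD between arrays was 0.33. Their closeness therefore does not show that Wnt8b varied little among rostral pools.

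The rostral minus middle difference of Wnt8b was 0.43 ± 0.07, with an interval of 0.27 to 0.59, so that the mean was 1.35-fold higher in rostral pools. Limma's unadjusted p = 0.000344 ranked 14 of 18525 features, and with an adjusted p = 0.445 it did not pass. The middle minus caudal difference was -0.35 ± 0.07, 1.27-fold lower in middle pools (interval -0.51 to -0.19, limma unadjusted p = 0.00126, rank 52, adjusted p = 0.413). These comparisons share the 3 middle pools. The scatter between arrays alone gave an SE of 0.11 for either difference, above the 0.07 used here. The intervals, p-values and ranks of Wnt8b may thus understate its error. Between rostral and caudal pools the difference was 0.08 ± 0.07 (interval -0.08 to 0.24, limma adjusted p = 0.890). Set against the mean of both ends, the middle was lower by a log2 difference of -0.39 ± 0.06 (limma unadjusted p = 0.000264, adjusted p = 0.9999). That was the lowest unadjusted p of all 18525 features in this comparison, and it did not pass. With the scatter between arrays as the error, limma's unadjusted p for it was 0.00158.

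Wls, the multispan membrane protein gene that all secreting cells of lipidated WNTs need, was lowest in rostral pools. The 3 rostral pools were at -0.09, -0.30 and -0.33, the 3 middle pools at 0.11, 0.06 and 0.05, and the 3 caudal pools at 0.30, 0.09 and 0.12. Every rostral pool lay below every middle and caudal pool, and middle and caudal pools overlapped. Rostral pools averaged -0.243 ± 0.129, middle pools 0.072 ± 0.032 and caudal pools 0.170 ± 0.117 (SD, n = 3 each).

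The rostral minus caudal difference of Wls was -0.41 ± 0.09 (interval -0.61 to -0.21), which is 1.33-fold lower in rostral pools. Limma gave an unadjusted p = 0.00172 and an adjusted p = 0.193. Rostral against middle, the difference was -0.31 ± 0.09 (interval -0.52 to -0.11, limma unadjusted p = 0.00732, adjusted p = 0.706), 1.24-fold lower in rostral pools. The middle minus caudal difference was -0.10 ± 0.09, with an interval of -0.30 to 0.10 and a limma adjusted p of 0.995. In whole tissue, fewer cells that make a transcript and less of it per cell cannot be told apart.

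Wnt3a, the hem ligand gene that hippocampal growth depends on, had pool values between -0.12 and 0.11 in all 9 pools, and the regions overlapped throughout. The 3 rostral pools were at 0.07, 0.03 and -0.07, the 3 middle pools at 0.08, -0.02 and -0.12, and the 3 caudal pools at -0.05, 0.11 and -0.02. Its rostral minus middle difference was 0.03 ± 0.08 (interval -0.15 to 0.21). The rostral minus caudal difference was -0.01 ± 0.08 (interval -0.18 to 0.17), and the middle minus caudal one -0.03 ± 0.08 (interval -0.21 to 0.14). Limma's adjusted p for these 3 differences lay between 0.995 and 0.999. The intervals reach to 0.21 in size, against the 0.43 measured for Wnt8b. As the ratios give no level, even expression of Wnt3a and a signal too weak to show a difference cannot be told apart.

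Wnt5a, the ligand gene of planar polarity signalling, also overlapped between all regions. The 3 rostral pools were at -0.10, 0.04 and -0.03, the 3 middle pools at -0.04, -0.07 and 0.02, and the 3 caudal pools at 0.07, -0.03 and 0.14. Its differences were 0.0008 ± 0.07 for rostral minus middle (interval -0.15 to 0.15), -0.09 ± 0.07 for rostral minus caudal (interval -0.24 to 0.07) and -0.09 ± 0.07 for middle minus caudal (interval -0.24 to 0.07). Limma's adjusted p among them was 0.878 or more. Even expression and a weak signal cannot be told apart for Wnt5a either.

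Wnt2b, a ligand gene of the hem and eye margin, could not be measured well enough for a comparison. It had a usable ratio on 14 of 18 arrays, 1 ratio was capped at the table's highest value and 3 were missing. Rostral pools were at 0.96, -1.02 and -0.35, middle pools at -0.57, 0.03 and 0.36, and caudal pools at -0.31, 1.73 and -0.84. The spread within a region exceeded every difference between regions. Its standard error of 0.75 allows rostral minus caudal differences from -2.10 to 1.43, and the SD between pools, 1.01, was at the 96.4th percentile of all features.

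**Figure D1:**
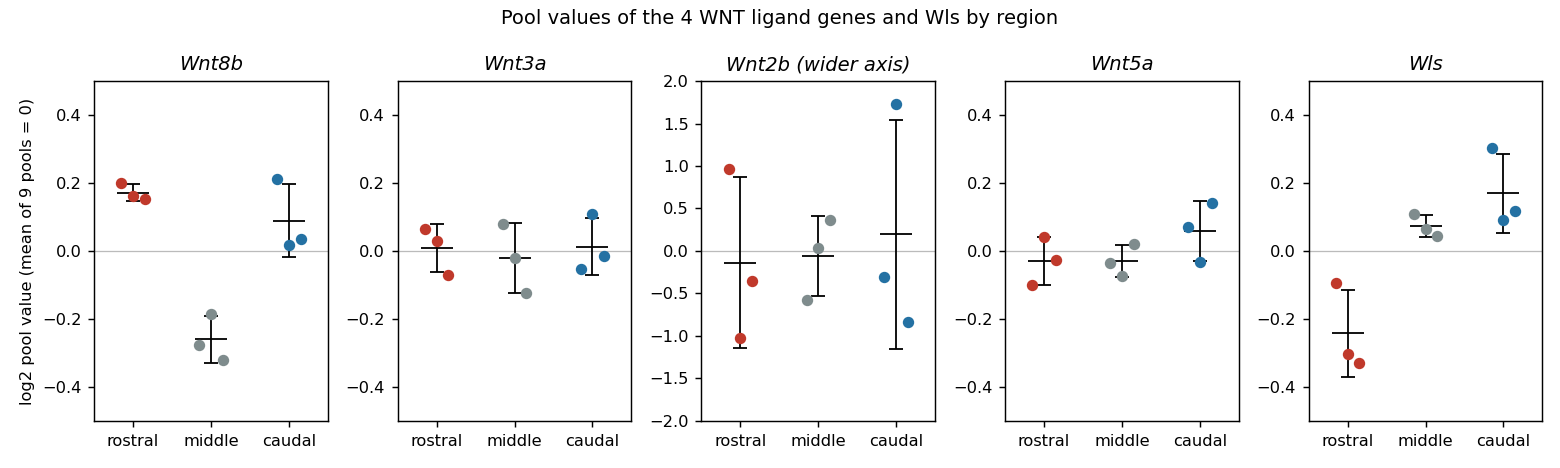
Log2 pool values of Wnt8b, Wnt3a, Wnt2b, Wnt5a and Wls (y axis, mean of the 9 pools at 0) in rostral, middle and caudal neocortex. Coloured points are the 3 pools of a region, bars the mean and SD. The middle pools of Wnt8b, -0.32 to -0.18, and the rostral pools of Wls, -0.33 to -0.09, stand apart from the other pools of their gene, and the Wnt2b axis is wider because its pools run from -1.02 to 1.73.

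Features with an unadjusted limma p under 0.05 were 2 of the 5 for rostral against middle (Wnt8b and Wls), where 5.25% of all features met that limit. They were 1 of 5 for rostral against caudal (Wls) against 7.90% of all features, 1 of 5 for middle against caudal (Wnt8b) against 4.86%, and 1 of 5 for the middle against the mean of the ends (Wnt8b) against 4.06%. After adjustment 0 of the 5 passed in any comparison, beside 0% of all features for rostral against middle, 0.0648% for rostral against caudal, 0% for middle against caudal and 0% for the middle against the ends. In limma's F test for any difference among the regions, Wnt8b had an unadjusted p = 0.000782 and an adjusted p = 0.259. Wls had an unadjusted p = 0.00423 and an adjusted p = 0.344 in that test, where 6.71% of all features had an unadjusted p under 0.05 and 0.0108% passed. Pools of 2 regions did not overlap for 2 of the 5 genes in rostral against middle, as for 12.8% of all features. They did not overlap for 1 of 5 in rostral against caudal (12.1% of all features) and for 1 of 5 in middle against caudal (10.6%).

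In size the differences were modest. The Wnt8b difference of rostral and middle was at the 92.2nd percentile of all features by absolute size and the Wls difference of rostral and caudal at the 89.2nd. Over the 5 genes the median difference was 0.0008 for rostral minus middle, -0.09 for rostral minus caudal and -0.10 for middle minus caudal, against 0.0022, 0.0016 and 0.0020 over all features tested. All 5 genes had a middle minus caudal difference below 0, from -0.35 to -0.03, but in 4 of them the interval included 0. Of all features, 50.7% were above 0 in that comparison. On the arrays that joined middle and caudal pools directly, the mean was above 0 for Wnt3a (0.03) and Wnt2b (0.33, 3 arrays). It was below 0 for Wnt8b, Wnt5a and Wls.

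**Figure D2:**
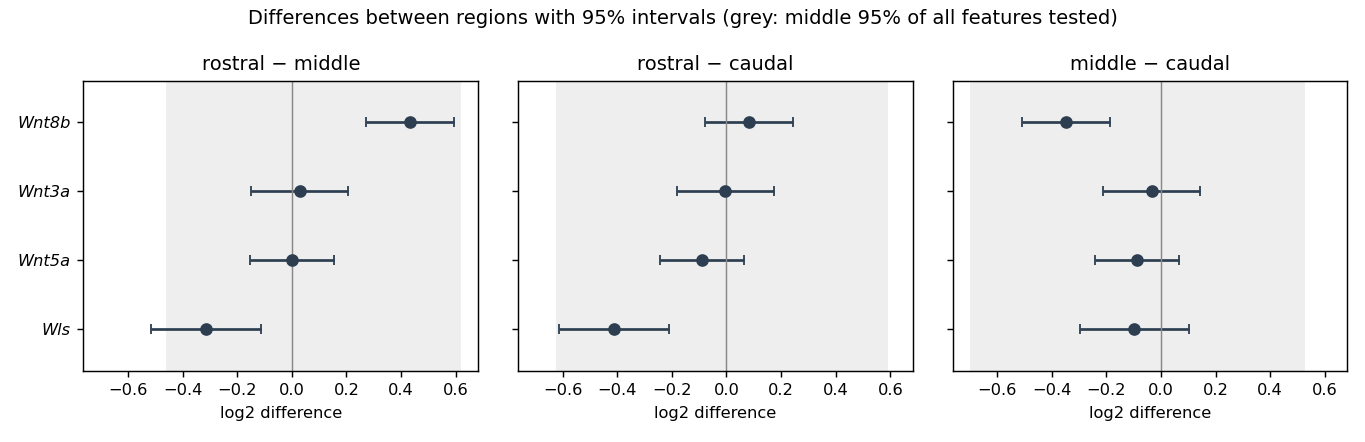
Log2 differences between regions (x axis) of Wnt8b, Wnt3a, Wnt5a and Wls, with 95% intervals from limma (bars), and the middle 95% of all 18525 features in grey. Intervals of Wnt8b leave out 0 where the middle is compared, those of Wls where rostral is compared, and all points lie within the grey range. Wnt2b is not drawn because its intervals exceed the axis.

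The ratios on single arrays show how these values arose. Since each pool is on 4 arrays, ratios of the same comparison share pools and are not independent. For Wls, all 6 arrays that joined a rostral with a middle pool gave a lower rostral value, from -0.50 to -0.07 with the dye effect removed, and so did all 6 that joined rostral with caudal, from -0.62 to -0.19. The dye effect of Wls was 0.03. With rostral in Cy5 the rostral minus caudal mean was -0.44, and with rostral in Cy3 it was -0.45. The rostral minus middle means were -0.23 and -0.34 in the same order of dyes. The 6 direct arrays gave a mean of -0.45 for rostral minus caudal, against -0.35 through the middle pools. The middle minus caudal arrays of Wls were split, 3 above 0 and 3 below.

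For Wnt8b, the 6 arrays that joined rostral with middle pools ran from 0.19 to 0.92, all with the higher value in rostral, once the dye effect of 0.35 was removed. Before its removal 5 of the 6 pointed that way. The 6 middle and caudal arrays ran from -0.49 to -0.01, all lower in middle, and before removal of the dye effect 2 of them were above 0. The dye effect of Wnt8b was at the 86.7th percentile of all features by signed value, not by size. With rostral in Cy5 the rostral minus middle mean was 0.96, and with rostral in Cy3 it was 0.14. Since each pool was in each dye on the same number of arrays, the effect cancels in the pool values.

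The 3 comparisons of Wnt8b did not add up closely. Directly, rostral minus middle was 0.55 and middle minus caudal -0.23, whereas rostral minus caudal was -0.04. This leaves a gap of 0.36, with an SE of 0.23 from the array SD of 0.33. Through the caudal pools the rostral minus middle difference was 0.19, and through the rostral pools the middle minus caudal difference was -0.59. The sign of these 2 differences was the same by both routes. That of rostral minus caudal was not, at -0.04 directly and 0.33 through the middle pools. The same gap was 0.10 for Wls (SE 0.09), 0.19 for Wnt3a (SE 0.11) and -0.08 for Wnt5a (SE 0.12). In size it exceeded its SE for Wnt8b, Wls and Wnt3a, and not for Wnt5a.

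Scatter between pools was larger for Wls, at an SD of 0.10, than for Wnt8b, and scatter between arrays smaller, at 0.12. For Wnt8b the SD between pools was 0.075, at the 21.9th percentile of all features, while that between arrays was 0.33, at the 56.6th. With the scatter between arrays as the error, an alternative chosen after seeing the data, the SE of the Wnt8b rostral minus middle difference was 0.11 in place of 0.07, and that of Wls was 0.04 in place of 0.09. On that error, which leaves out variation between pools, limma's adjusted p in rostral against middle was 0.0437 for Wnt8b and 0.00289 for Wls. In rostral against caudal it was 0.000279 for Wls. For Wnt8b in rostral against middle, limma's unadjusted p on that error was 0.0021, higher than the 0.000344 from the scatter between pools. Its adjusted p was lower only beside the larger number of features that pass. The same error lets 994 features pass in rostral against middle and 1564 in rostral against caudal. Pool values also carry the scatter between arrays, so the smaller SE between pools of Wnt8b may understate its error.

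**Figure D3:**
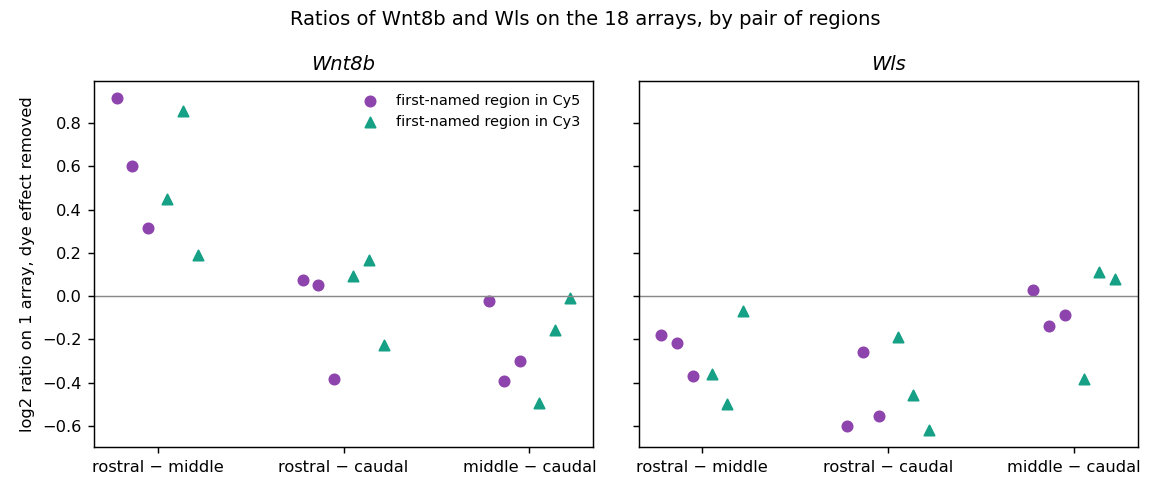
Log2 ratios of Wnt8b (left) and Wls (right) on each of the 18 arrays, turned to the difference named on the x axis and with the dye effect removed (y axis). Circles are arrays with the first-named region in Cy5, triangles those with it in Cy3. All 6 Wnt8b ratios of rostral against middle lie above 0 and all 6 of middle against caudal below 0. All 12 Wls ratios with a rostral pool lie below 0. Each pool is on 4 arrays, so these ratios are not independent of each other.

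The Wnt8b differences of the middle from either end and the Wls differences of rostral from middle and caudal kept their direction in the 31 alternatives that moved their values, 27 of which left out a pool or an array. The other 6 of the 37 changed the error, the weights of pools, a block or the features tested, and left these values as they were. The rostral minus middle difference of Wnt8b ran from 0.34 to 0.53, with unadjusted limma p up to 0.0189 and adjusted p from 0.0437 to 1. The rostral minus caudal difference of Wls ran from -0.49 to -0.35, with unadjusted limma p up to 0.0159 and adjusted p from 0.000279 to 0.673. Adjusted p under 0.05 came only with the scatter between arrays as the error. Middle minus caudal for Wnt8b ran from -0.52 to -0.25 with unadjusted limma p up to 0.067. Rostral minus middle for Wls ran from -0.41 to -0.21 with p up to 0.131, which came without centring of the arrays. Leaving the arrays uncentred shifted the median of all features to 0.10 for rostral minus middle, and relative to it the Wls difference was -0.32 and the Wnt8b difference 0.43.

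The 5 genes did not vary together over the 9 pools to a degree that could be told from 0. Pearson's r over the 10 pairs lay between -0.56 (Wnt2b and Wnt5a, exact permutation p = 0.119) and 0.34, and the lowest adjusted p was 0.882. Spearman's rho gave a lowest adjusted p of 0.982 by the same exact permutation test. With the 2 pools of most extreme Wnt2b values left out, r of Wnt2b and Wnt5a was -0.45. Wnt8b and Wls had r = -0.30 (rho = -0.05, exact permutation p = 0.419 and 0.912). The pools share arrays and regions, which the permutation ignores.

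Genes of the pathway were taken from 6 lists, of WNT ligands, their processing, receptors, signal transduction, response and secreted modulators. Of 83 genes, 72 were measured and 0 passed in any comparison of regions. An unadjusted limma p under 0.05 was found for 4 in rostral against middle (5.56%), 6 in rostral against caudal (8.33%) and 4 in middle against caudal (5.56%), near the shares of all features given above.

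Among the 13 other WNT ligand genes measured, the rostral minus caudal median was 0.05, with 8 above 0 and 5 below. Wnt7b, a ligand gene of cortical neurons, had rostral differences of -0.24 ± 0.12 against both middle and caudal pools, and Wnt4 had a middle minus caudal difference of 0.15 ± 0.06. Neither passed.

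Of the genes that act with Wls, Porcn, the enzyme that lipidates WNTs, had a rostral minus caudal difference of -0.05 ± 0.06. Vps35, a retromer subunit that returns Wls from endosomes, had -0.05 ± 0.07. Tmed5, a cargo receptor of the early secretory pathway, had -0.39 ± 0.07 for rostral minus caudal (limma adjusted p = 0.167) and -0.28 ± 0.07 for rostral minus middle, the same order of regions as Wls. Tmed10, of the same protein family, had 0.19 ± 0.06 for rostral minus caudal. In this list of 9, 5 were above 0 and 4 below for rostral minus caudal, with a median of 0.05.

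The receptor genes had a median near 0. Of 16 measured, 5 were above 0 and 11 below for rostral minus caudal, with a median of -0.04. Fzd7, a Frizzled receptor gene, had -0.51 ± 0.09 (limma adjusted p = 0.156), and its rostral minus middle and middle minus caudal differences were -0.23 and -0.28. The co-receptor genes Lrp5 and Lrp6 had 0.11 ± 0.07 and -0.02 ± 0.06. Ror2 and Ryk, receptor genes for Wnt5a, had -0.05 ± 0.07 and 0.02 ± 0.08. Of 15 genes of signal transduction, 10 were above 0 for rostral minus caudal, with a median of 0.01. Gsk3b, the kinase that marks beta-catenin for degradation, had 0.15 ± 0.05 for rostral minus middle, which did not pass. Ctnnb1, the beta-catenin gene, had -0.0034 ± 0.05 for rostral minus caudal.

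Genes that respond to WNT signalling ran from -0.23 (Tnfrsf19) to 0.28 (Ccnd1) in rostral minus caudal. Ccnd1, the cyclin D1 gene, also had a middle minus caudal difference of 0.35 ± 0.15 (limma adjusted p = 0.995). Axin2, a feedback inhibitor and direct target, had a rostral minus middle difference of -0.07 ± 0.06 and a rostral minus caudal difference of -0.02 ± 0.06. Lef1 had -0.04 ± 0.05 and -0.05 ± 0.05 in the same comparisons. Of the 7 response genes measured 4 were above 0 for rostral minus caudal (median 0.02), and 0 had an unadjusted p under 0.05 in any comparison. Of 12 secreted antagonists and agonists, 8 were above 0 for rostral minus caudal, with a median of 0.01. Sfrp1, a secreted antagonist that binds WNTs, had the lowest p of the pathway lists in rostral against caudal, with a difference of 0.73 ± 0.09 (limma adjusted p = 0.0571). Its middle minus caudal difference was 0.43 ± 0.09 (limma adjusted p = 0.413).

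**Figure D4:**
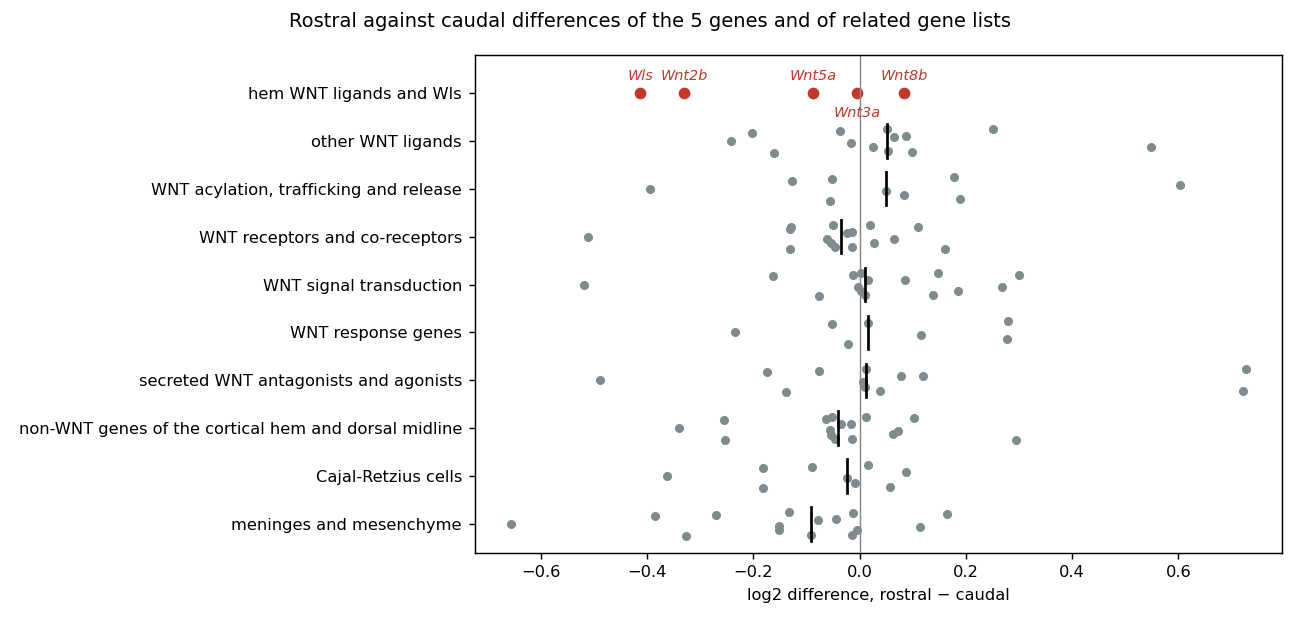
Rostral minus caudal log2 differences (x axis) of the 5 genes (red) and, below, of each gene measured in the WNT pathway lists and in lists of hem, Cajal-Retzius and meningeal markers (grey points, black line at the list's median). Single genes run from -0.66 (Ptgds) to 0.73 (Sfrp1), and Wls at -0.41 lies within that range.

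Markers of cells and tissues near the hem were set beside these genes. Of 16 other hem and dorsal midline genes measured, 5 were above 0 and 11 below for rostral minus caudal, with a median of -0.04. The BMP ligand genes Bmp4 and Bmp7 had -0.06 ± 0.05 and -0.05 ± 0.24, and the roof plate transcription factor gene Msx1 had -0.05 ± 0.05. Emx2, a homeobox gene of caudomedial cortex, had -0.25 ± 0.08 for rostral minus caudal and -0.23 ± 0.08 for rostral minus middle (limma adjusted p = 0.427 and 0.897), the order of regions seen in Wls. Of 9 Cajal-Retzius genes, 3 were above 0 and 6 below for rostral minus caudal, with a median of -0.02. Reln, which encodes the protein that these cells secrete, had -0.36 ± 0.08 for rostral minus caudal and -0.31 ± 0.08 for middle minus caudal. None of these passed.

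Meningeal and mesenchymal markers had the same sign as Wls in rostral minus caudal for 13 of 15 measured, with a median of -0.09. Of the 15, 4 had an unadjusted p under 0.05, against 7.90% of all features, and 0 passed. The list's median in each pool was 0.02, -0.08 and -0.13 in rostral pools and 0.05, 0.0024 and 0.13 in caudal pools, which overlap. In middle pools it was -0.0016, -0.05 and 0.0012, which overlap with the rostral ones. Rostral minus middle, 11 of the 15 were below 0, with a median of -0.04. Of 7 red blood cell genes, 3 were above 0 and 4 below for rostral minus caudal, with a median of -0.13. For rostral minus middle, in which Wls was also below 0, they were below 0 in 7 of 7, with a median of -0.25. Endothelial genes were below 0 for 8 of 9 in rostral minus caudal (median -0.07). Gapdh control spots had medians of -0.09, -0.04 and -0.15 in rostral pools, 0.07, 0.09 and 0.08 in middle pools and -0.14, 0.03 and 0.15 in caudal pools. With that profile as a covariate the rostral minus caudal difference of Wls was -0.47 ± 0.09. The rostral minus middle difference of Wnt8b was then 0.34 ± 0.08 (limma unadjusted p = 0.0057), against 0.43 without the covariate. The part of the tissue markers in the Wls difference was not tested.

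Beside Wnt8b, choroid plexus genes were above 0 in rostral minus middle for 5 of the 6 measured out of 11 listed, with a median of 0.12, and 3 of 6 were above 0 in middle minus caudal. Their pool medians were 0.12, 0.11 and -0.03 in rostral pools and 0.0002, -0.12 and 0.02 in middle pools, which overlap. Ttr, the transthyretin gene, had 0.63 ± 0.88 for rostral minus middle. Fabp7, a lipid carrier of radial glia among the dorsal telencephalic genes, had a middle minimum like that of Wnt8b, at 0.32 ± 0.07 for rostral minus middle and -0.34 ± 0.07 for middle minus caudal (limma adjusted p = 0.587 and 0.413). The part of these in the Wnt8b difference was not tested. The dorsal telencephalic list of 14 was split, 7 above 0 and 7 below, in each of the 3 comparisons of regions. Ventral telencephalic genes had medians of -0.05 for rostral minus middle and -0.0037 for rostral minus caudal, and diencephalic genes had -0.02 and 0.15, with 4 of 7 above 0 for rostral minus caudal.

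The genes whose 9 pool values were most like those of each of the 5 were taken by Pearson's r over candidate features with values on all arrays, 10384 for Wnt2b and 10383 for each of the others. The choice among so many candidates over 9 pools favours a high r, so these are descriptions. For Wnt8b they were Rab15 (r = 0.96), Isoc1 (0.92) and Traf3ip1 (0.92), with rostral minus middle differences of 0.14 to 0.16 and middle minus caudal ones of -0.11 to -0.10. For Wls they were Pgrmc1 (0.96), Klhl25 (0.95) and Atp1b2 (0.94), with rostral minus caudal differences of -0.27, -0.21 and -0.38. Those nearest to Wnt5a were Pacsin3, Kif7 and Arhgap21 (r of 0.93, 0.93 and 0.92), and those nearest to Wnt3a were Scamp2, Cenpv and Ankrd60 (0.95, 0.94 and 0.90). For Wnt2b, whose pool values were too poorly measured for a comparison, they were Olfr713, Chst11 and Insig2 (0.97, 0.94 and 0.91).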

How the data were processed

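Tissue RNA was extracted with Trizol, per the labels' protocols. The authors deposited 1 log2 ratio per feature and array in a table of 21998 features; the scale was read from the values, whose cap is log2 of 100000 (16.61). Scanner, background correction, filters and normalization: not given in the sources used here. Arrays had 18085 to 20693 values, and the number of arrays limits the precision.

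Control spots (232) were left out, capped ratios (1477) were set to missing and each array was centred on its median, since medians ran from -0.09 to 0.61. A feature needed values on 12 arrays and on 2 arrays of each pool. Pool values and a dye effect were estimated by least squares, and limma 3.58.1 (R 4.3.3; lmFit, eBayes, two-sided) took the 9 pool values as samples and region as its factor, with 6 residual and 1.26 prior degrees of freedom. The scripts were tested on simulated data. The platform annotation dates from the array's time, and all 5 gene IDs were found in RefSeq's GRCm38.p6 table. Same-numbered pools of different regions did not deviate together (r from -0.43 to -0.06). No array held pools of the same number, and this layout affects r, so the check cannot decide whether the numbers pair pools. Correlations between the 5 genes used Python with scipy.

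The 5 genes, the 15 gene lists, the tests and the alternatives were chosen with earlier results of these data known. Genes of a list were named by a rule where they had one of its 3 lowest p in a comparison of regions; Vps35, Lrp5, Lrp6, Ryk, Ctnnb1, Bmp4, Bmp7 and Msx1 were chosen as textbook genes after their values were seen.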

Additional observations from a re-analysis of the deposited data

How the results depend on the processing

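The pool number as a replicate block cannot move a difference of these genes with values on all arrays, since each number occurs in every region. With it limma's unadjusted p of Wnt8b in rostral against middle was 0.00164 (adjusted p = 0.9998). That of Wls in rostral against caudal was 0.0011 (adjusted p = 0.398). With this block 0 features passed in rostral against caudal, against 12. That count was 0 without centring and 0 with the Gapdh covariate, 46 among features on all 18 arrays and 7 without a filter. It ran from 0 to 22 with 1 pool or array left out. It was 4 without middle replicate 1, 2 without rostral replicate 3, 1 without rostral replicate 2 and 0 without any of the other 6 pools, 22 without array 15, 2 without array 13, 6 without array 14 and 7 without array 11 or 16. With the scatter between arrays as the error, added after seeing the data, counts were 994, 1564 and 645 for rostral against middle, rostral against caudal and middle against caudal. On that error the Wnt8b (0.43) and Wls (-0.31) differences of rostral and middle and the Wls difference of rostral and caudal (-0.41) passed, so 2 and 1 of the 5 genes did.

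Some values of Wls, Wnt3a, Wnt2b and Wnt5a changed sign. Wls for the middle minus the mean of the ends was -0.029 without centring. Wnt3a rostral minus caudal was 0.024 with the Gapdh covariate. Wnt2b rostral minus middle was 0.071 without centring. With capped ratios at the highest uncapped ratio, Wnt2b was 0.15, 0.32, 0.17 and 0.0083 for rostral minus middle, rostral minus caudal, middle minus caudal and middle minus the ends, and the last was 0.092 with weighted pools and 0.050 with the Gapdh covariate. With 1 pool or array left out, the same 4 differences ran from -0.31 to 0.15, -0.81 to 0.45, -0.77 to 0.54 and -0.36 to 0.32 for Wnt2b and from -0.046 to 0.076, -0.052 to 0.043, -0.097 to 0.014 and -0.082 to 0.020 for Wnt3a. Wnt5a rostral minus middle ran from -0.049 to 0.056. The cause was not tested. Wnt2b has no value where fewer than 2 arrays of a pool remained or values on all 18 arrays were required.

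Precision is limited by 3 pools a region and by 1 feature per gene. Ratios give no levels, and the differences are relative to the array medians.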
